A study of Mus musculus with 3 samples.

Results

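The miR-17-92 and miR-106b-25 clusters are groups of microRNAs (miRNAs) that are cut from shared primary transcripts, and they are described here by 10 mature miRNAs in exosomes of mouse bone-marrow mesenchymal stem cells (MSCs). The members were taken by name from the miRNA names of the array files: mmu-miR-17-5p, mmu-miR-18a-5p, mmu-miR-19a-3p, mmu-miR-19b-3p, mmu-miR-20a-5p and mmu-miR-92a-3p of the miR-17-92 cluster, mmu-miR-106b-5p, mmu-miR-93-5p and mmu-miR-25-3p of the miR-106b-25 cluster, and mmu-miR-106a-5p of a paralogous cluster on the X chromosome. Of these 10, 9 had probes under their own name, out of 1881 mouse miRNAs on the array. The prefix mmu, for mouse, is left out below. miR-106a-5p had no probe: the files list it as a second target of both probes of miR-17-5p, so the value given as miR-17-5p below may hold both miRNAs.

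Exosomes, small vesicles shed into the medium, were collected from cultures of MSCs, the adherent stromal cells of marrow, and mouse miRNA arrays measured their RNA. The first group is exosomes of MSCs kept 24 h in hypoxia with GW4869 (H+G-Exo); GW4869 blocks neutral sphingomyelinase, whose product ceramide helps to bud vesicles, and its dose is not in the labels. The second is exosomes after 24 h of hypoxia alone (H-Exo), and the last is exosomes after 24 h of normoxia (N-Exo). All 3 groups came from primary MSCs of wild-type male C57BL/6 mice of 4 to 6 weeks, used at passages 3 to 6 and grown with 10% fetal bovine serum; the labels name no step that clears vesicles of the serum. Medium of 10 dishes was used for an exosome preparation, and whether animals were pooled is not stated. Each group was 1 array, so the differences lack a replicate check and come without p-values. Fewer vesicles carrying a miRNA and less of it per vesicle cannot be told apart.

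The miR-17-92 transcript is induced by Myc and E2F factors and is high in growing cells and in many tumours, while the miR-106b-25 miRNAs are made from an intron of Mcm7, which encodes a subunit of the helicase that licenses DNA replication. A miRNA finds its messages mainly through its seed, bases 2 to 8 from its 5′ end, so members with 1 seed share most predicted targets. miRNAs with the miR-17 seed restrain Cdkn1a, an inhibitor of the cell cycle, and Bcl2l11, a promoter of cell death; miR-18a acts on the TGF-beta pathway; and miR-92a restrains vessel growth in endothelial cells.

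The mature sequences, from RefSeq for the GRCm38.p6 build, are printed because shared seeds and near-identical 3′ ends decide how the members can be grouped and told apart by probes. All 10 members matched, and they fell into 4 seed groups. Each is written 5′ to 3′ with its seed in capitals.
miR-17-5p: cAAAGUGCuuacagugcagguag
miR-20a-5p: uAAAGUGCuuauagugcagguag
miR-106a-5p: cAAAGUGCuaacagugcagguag
miR-106b-5p: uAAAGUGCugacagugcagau
miR-93-5p: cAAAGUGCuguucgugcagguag
miR-18a-5p: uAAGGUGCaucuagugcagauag
miR-19a-3p: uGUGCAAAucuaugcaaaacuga
miR-19b-3p: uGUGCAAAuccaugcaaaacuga
miR-92a-3p: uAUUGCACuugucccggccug
miR-25-3p: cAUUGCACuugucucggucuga

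With positions counted from 1 at the 5′ end of the first-named miRNA, miR-17-5p and miR-106a-5p differ by the single substitution U10A and miR-19a-3p and miR-19b-3p by U11C, whereas miR-17-5p and miR-20a-5p differ by C1U and C12U. In RefSeq the 6 hairpins of miR-17-92 span 836 bases at chr14:115043671-115044506 on the plus strand. The last 117 of these bases, which hold miR-92a-3p, overlap the annotated non-coding gene Mir17hg. Those of miR-106b-25 span 498 bases at chr5:138165321-138165818 on the minus strand, inside Mcm7. The miR-106a hairpin belongs to another group of 6 hairpins at chrX:52741693-52742567, which also encodes second copies of miR-19b-3p and miR-92a-3p. Those copies give the same mature sequence as the copies on chromosome 14, so no probe can assign their signal to either locus.

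Each member had 2 probes of 15 spots, written as DNA that pairs with the 3′ part of the miRNA. The brighter probes of 3 miR-17 seed members are shown because they share their first 10 bases, in capitals.
miR-17-5p: CTACCTGCACtgt
miR-20a-5p: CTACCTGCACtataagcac
miR-93-5p: CTACCTGCACgaacag
The miR-17-5p probe was 13 bases long and paired in full with both miR-17-5p and miR-106a-5p, and it paired with miR-20a-5p over a stretch of 11 bases. The brighter probes of the other members were 16 to 21 bases long and paired in full with their own miRNA and no other member. Signal that members may share through partial pairing was not tested.

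Under the scaling used here, 8 of the 9 members were lower in H+G-Exo than in N-Exo by 1.91-fold or more, and miR-17-5p alone was at a similar level. The pair with the miR-19 seed showed the largest differences, with miR-19a-3p 5.39-fold and miR-19b-3p 4.74-fold lower in H+G-Exo. After hypoxia alone the differences from N-Exo were smaller, up to 1.89-fold for miR-106b-5p. A miRNA is said to have fallen or risen where both arrays detected it and its change was 2-fold or more and over 2 standard errors, taken over spots. By that rule H+G-Exo had 7 members down relative to N-Exo and 5 relative to H-Exo, H-Exo had 0 down relative to N-Exo, and 0 members rose. Among all miRNAs measured, 26.5%, 26.1% and 10.7% were lower in these 3 comparisons, and 18.6%, 6.17% and 4.3% were higher. Without scaling or with hybridization spike-ins the count of 5 became 0 and the count of 0 for hypoxia alone became 7. The shares of all miRNAs that were lower moved too. They became 1.23% and 3.53% for H+G-Exo against H-Exo, and 23.0% and 23.4% for hypoxia alone.

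Signals are scaled: the mean over the spots of the member's brighter probe is set relative to the array's 75th percentile among commonly detected probes, a value of 468.9 in H+G-Exo, 235.0 in H-Exo and 417.3 in N-Exo. Detection asked that over 50% of a probe's spots be well above background, and the brighter probes of all 9 members passed on every array. Errors written with ± are SDs over the unflagged spots of a probe on 1 array, which cover technical error only. The members had 12 to 15 such spots, and some other miRNAs given below had as few as 7. The labelling spike-ins, RNAs added before labelling, read 1670 in H+G-Exo, 1520 in H-Exo and 1801 in N-Exo as geometric means before scaling, and the hybridization spike-ins read 6722, 6021 and 5971 in the same order of groups. The 75th percentile therefore moved more between H-Exo and the other arrays than the spike-ins did, and the members' counts in each comparison are given with their range over 7 scalings.

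Among the members with the miR-17 seed, miR-20a-5p had a scaled signal of 2.57 ± 0.103 in H+G-Exo, 7.19 ± 0.312 in H-Exo and 8.21 ± 0.324 in N-Exo. miR-106b-5p read 1.51 ± 0.0737 in H+G-Exo, 2.97 ± 0.139 in H-Exo and 5.62 ± 0.237 in N-Exo. miR-93-5p read 0.326 ± 0.0214 in H+G-Exo, 0.546 ± 0.0468 in H-Exo and 0.685 ± 0.0198 in N-Exo. These 3 shared the same order of arrays, lowest in H+G-Exo and highest in N-Exo, under this scaling. How the drop splits between hypoxia and GW4869 rests on the scaling: miR-20a-5p differed by -0.19 in log2 with hypoxia and by a further -1.49 with GW4869, but by -1.02 and -0.49 without scaling. For miR-106b-5p the same steps were -0.92 and -0.98, and -1.75 and 0.02 without scaling. Against N-Exo, miR-106b-5p fell 3.72-fold in H+G-Exo, miR-20a-5p fell 3.20-fold and miR-93-5p fell 2.10-fold.

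The miR-17-5p probe behaved unlike these. Its scaled signal was 0.260 ± 0.0431 in H+G-Exo, 0.319 ± 0.0604 in H-Exo and 0.271 ± 0.0569 in N-Exo, and its spots overlapped between all pairs of arrays. Its log2 difference in H+G-Exo over N-Exo was -0.06 with a standard error of 0.10 over spots. For the other members such errors ran from 0.019 to 0.053 in that comparison. The second, 12-base probe read 8.03 ± 3.00 in H+G-Exo, 11.7 ± 3.83 in H-Exo and 23.7 ± 3.42 in N-Exo before scaling, and it was well above background in N-Exo only, so it allows no fold. Before scaling, then, the 13-base probe read 1.08 times as high in H+G-Exo as in N-Exo while the dimmer probe read lower. The other arm of the same hairpin, miR-17-3p, fell 3.96-fold in H+G-Exo against N-Exo, with 0.0869 ± 0.0126 in H+G-Exo, 0.222 ± 0.0223 in H-Exo and 0.344 ± 0.0355 in N-Exo.

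miR-18a-5p, whose seed differs from the miR-17 seed at 1 base, read 0.318 ± 0.0192 in H+G-Exo, 1.02 ± 0.0495 in H-Exo and 1.17 ± 0.0560 in N-Exo. It followed miR-20a-5p, which comes from the same transcript: in H-Exo miR-18a-5p was 1.15-fold and miR-20a-5p 1.14-fold below N-Exo, with overlapping spots, and both fell in H+G-Exo, where miR-18a-5p was 3.19-fold below H-Exo and 3.68-fold below N-Exo.

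In the miR-19 seed group, miR-19a-3p read 0.211 ± 0.0290 in H+G-Exo, 0.681 ± 0.0389 in H-Exo and 1.14 ± 0.0471 in N-Exo. miR-19b-3p read 2.19 ± 0.0687 in H+G-Exo, 6.28 ± 0.170 in H-Exo and 10.4 ± 0.416 in N-Exo. The 2 moved almost in step, at log2 differences of -0.74 and -0.73 in H-Exo over N-Exo and of -1.69 and -1.52 once GW4869 was added. Their probes paired with the other miRNA of the group over an unbroken stretch of 12 bases. Since the 2 miRNAs differ by U11C alone, these probes pair with the other miRNA at all but 1 base. How much signal the 2 share was not tested, so their like movement may not be that of separate miRNAs. miR-19b-3p has a second gene copy on the X chromosome that miR-19a-3p lacks.

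The 2 members of the miR-25 seed group differed from each other. miR-92a-3p, the last miRNA of its cluster, read 3.74 ± 0.115 in H+G-Exo, 7.74 ± 0.0758 in H-Exo and 7.16 ± 0.287 in N-Exo. miR-25-3p, the last of the miR-106b-25 cluster, read 1.95 ± 0.0667 in H+G-Exo, 2.62 ± 0.236 in H-Exo and 4.46 ± 0.280 in N-Exo. miR-92a-3p was the one member besides miR-17-5p to exceed its N-Exo signal in H-Exo under the main scaling, by 1.08-fold, while without scaling or with spike-ins all 9 were lower. It fell 2.07-fold once GW4869 was added to hypoxia. That call was lost under each of the other 6 scalings, and its dimmer probe gave 1.97-fold. miR-25-3p in H-Exo was 1.70-fold below N-Exo, and with GW4869 it was lower again by 1.34-fold. It fell 2.29-fold in H+G-Exo against N-Exo, where miR-92a-3p, at 1.91-fold, missed the rule.

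**Figure D1:**
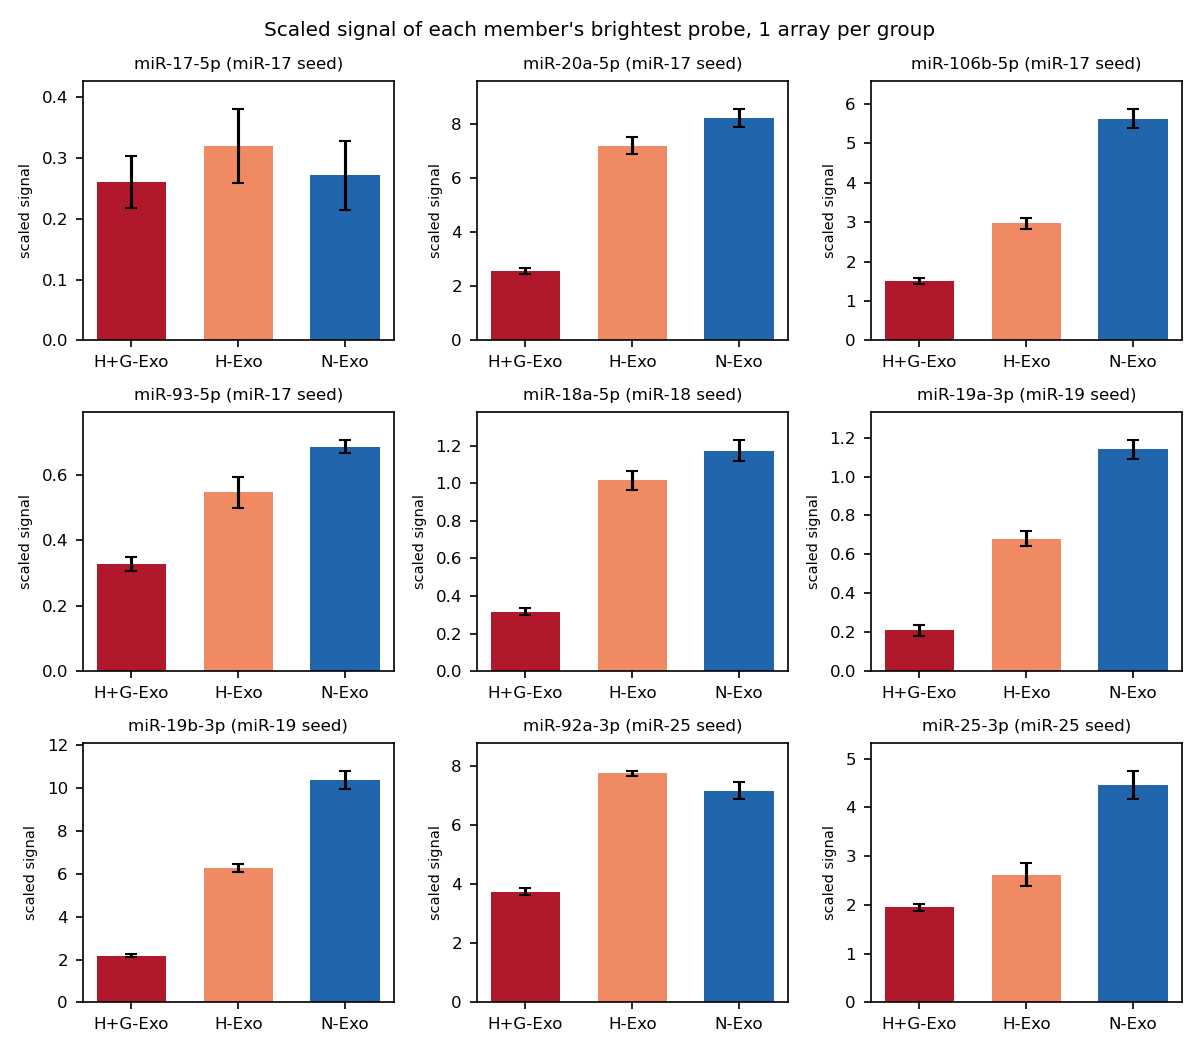
Scaled signal (vertical axis, no unit, from 0, a scale of its own in each panel) of the brighter probe of each member in H+G-Exo, H-Exo and N-Exo, 1 array per group; bars are means over spots and error bars their SD. In 7 panels the bars climb in the order H+G-Exo, H-Exo, N-Exo; miR-92a-3p is highest in H-Exo, and the bars of miR-17-5p lie within their error bars of each other.

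Setting H-Exo against N-Exo asks what hypoxia changed in the exosomes. Of the 9 members 0 fell and 0 rose, against 10.7% of the 582 miRNAs measured on both arrays that fell and 4.3% that rose. The members' log2 differences ran from -0.92 for miR-106b-5p to 0.24 for miR-17-5p, with a median of -0.33, beside a median of 0.34 over all 582. Relative to that median every member was lower under this scaling, miR-106b-5p by the most: 12.5% of all miRNAs had a lower difference than it. The 3 members of the miR-106b-25 cluster had a median of -0.77 and the 6 of the miR-17-92 cluster one of -0.20, and the ranges of the clusters overlapped.

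The count of members called in this comparison rests on the scaling. Before scaling, miR-106b-5p read 698 ± 32.6 in H-Exo against 2347 ± 99.1 in N-Exo, and miR-19b-3p read 1475 ± 40.0 against 4330 ± 173. Without scaling and with the hybridization spike-ins 7 of 9 members fell, with the labelling spike-ins 4, and with the 75th percentile over all probes or the median of detected probes 1. The same choices moved the background: 23.0% of all miRNAs fell without scaling, 23.4% with the hybridization and 19.1% with the labelling spike-ins. The share was 14.3% with the 75th percentile over all probes and 12.9% with the median of detected probes. Higher calls made up 28.7% of all calls under the main scaling and 0.730% to 22.4% under the other 6, and the median of all miRNAs itself moved between -0.49 and 0.34. A scaling by 1 factor per array moves the members and all miRNAs alike, so the gap of the members' median to that of all, -0.67 in log2, is nearly fixed across scalings. Settings that can move it gave -0.56 with normexp background or the deposited table and -0.72 with the mean over detected probes.

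Setting H+G-Exo against H-Exo asks what GW4869 changed under hypoxia. Here 5 of 9 members fell and 0 rose, against 26.1% of 567 miRNAs that fell and 6.17% that rose. The 5 were the miR-19 pair (miR-19b-3p by 2.87-fold, miR-19a-3p by 3.22-fold), miR-20a-5p by 2.80-fold, miR-18a-5p by 3.19-fold and miR-92a-3p by 2.07-fold, so all belonged to the miR-17-92 cluster. miR-106b-5p, at 1.97-fold lower, was just short of the rule, and miR-93-5p was lower by 1.67-fold. The median was -1.05 for the members and -0.42 for all miRNAs; the miR-17-92 members had a median of -1.50 and the miR-106b-25 members one of -0.74.

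Before scaling these differences were smaller. miR-19a-3p was 1.62-fold, miR-18a-5p 1.60-fold, miR-19b-3p 1.44-fold and miR-20a-5p 1.40-fold lower in H+G-Exo, none past 2-fold. miR-92a-3p read 1754 ± 53.9 in H+G-Exo against 1819 ± 17.8 in H-Exo, and miR-106b-5p 708 ± 34.5 against 698 ± 32.6. miR-25-3p was higher, at 915 ± 31.3 against 615 ± 55.5. Without scaling and with either kind of spike-in 0 members were called, while 1.23% to 3.53% of all miRNAs were called lower. The 75th percentile over all probes, the median of detected probes and quantile normalization called 4 members. Beside them 17.1%, 15.5% and 18.9% of all miRNAs were called lower. Only the main scaling called 5. Higher calls were 19.1% of all calls under the main scaling and 38.9% to 96.3% under the other 6, and the median of all miRNAs moved between -0.42 and 0.57. miR-18a-5p, miR-19a-3p, miR-19b-3p, miR-20a-5p and miR-92a-3p were below 0 in log2 in each of the 13 settings that gave member values, while miR-17-5p, miR-25-3p, miR-93-5p and miR-106b-5p were above 0 in some. The gap between the clusters was -0.76 and, being a difference within arrays, cannot move with a scaling by 1 factor per array; settings that can move it gave -0.95 (mean over detected probes) to -0.63 (normexp background). No test of that gap was possible, and it counts miR-17-5p in the miR-17-92 cluster.

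**Figure D2:**
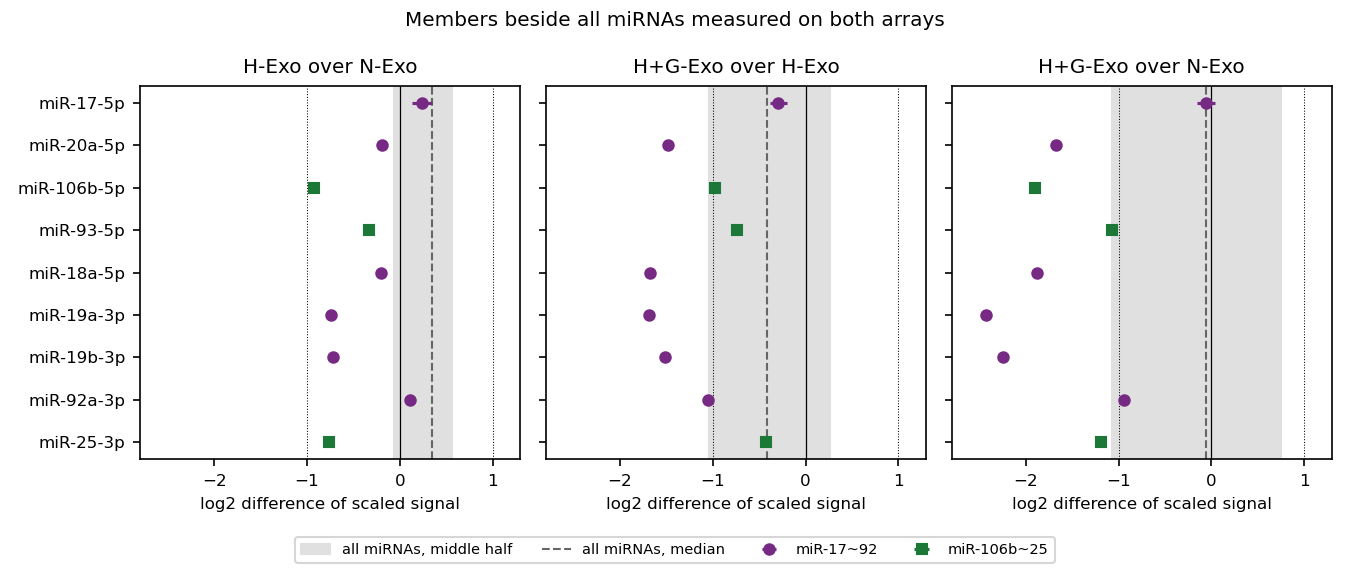
Log2 difference of scaled signal (horizontal axis) of each member in the 3 comparisons, circles for miR-17-92 and squares for miR-106b-25, with standard errors over spots; the grey band holds the middle part (between the quartiles) of all miRNAs measured on both arrays, the dashed line is their median and dotted lines mark 2-fold. In H+G-Exo over N-Exo 8 members lie left of the dashed line by 0.87 or more, and miR-17-5p lies on it.

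H+G-Exo against N-Exo combines both treatments and uses the same arrays as the other comparisons, so it is not separate evidence. In it 7 of 9 members fell and 0 rose, against 26.5% of 597 miRNAs that fell and 18.6% that rose. The median was -1.68 for the members and -0.06 for all miRNAs. The falls were 5.39-fold for miR-19a-3p, 4.74-fold for miR-19b-3p, 3.72-fold for miR-106b-5p, 3.68-fold for miR-18a-5p, 3.20-fold for miR-20a-5p, 2.29-fold for miR-25-3p and 2.10-fold for miR-93-5p. The 75th percentiles of both arrays were close, and before scaling 6 of 9 members still fell, beside 23.5% of all miRNAs. miR-19b-3p read 1027 ± 32.2 in H+G-Exo against 4330 ± 173 in N-Exo, and miR-20a-5p 1204 ± 48.5 against 3426 ± 135. The smaller falls were near the rule before scaling: miR-25-3p was 2.04-fold lower, and miR-93-5p, at 1.87-fold, missed it.

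Over the 7 scalings 5 to 7 members fell in H+G-Exo against N-Exo, while the share of all miRNAs that fell was 20.6% to 27.3% and higher calls were 41.3% of all calls under the main scaling and 41.8% to 57.0% under the other 6; the median of all miRNAs moved between -0.10 and 0.20. miR-18a-5p, miR-19a-3p, miR-19b-3p, miR-20a-5p and miR-106b-5p were called lower in each of the 13 settings, and 8 members, all but miR-17-5p, were below 0 in each. miR-25-3p, at 2.29-fold, and miR-93-5p, at 2.10-fold, were the called members nearest the rule and lost the call in some settings.

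**Figure D3:**
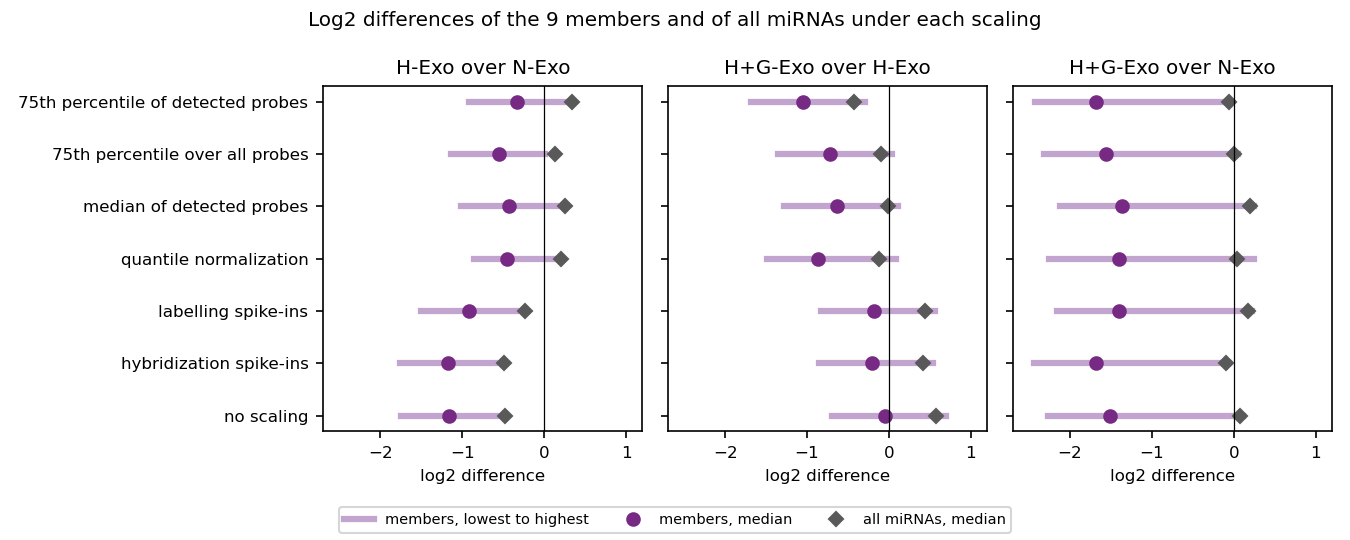
Log2 differences (horizontal axis) under 7 ways of scaling the arrays, from the 75th percentile of detected probes at the top to no scaling at the bottom; purple dots are medians of the 9 members, bars their lowest to highest value and grey diamonds the median of all miRNAs. Dots and diamonds shift together, as they must when each array is divided by 1 factor (all but quantile), and the dots of H+G-Exo over H-Exo reach -0.053 without scaling.

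The 2 probes of a member gave like answers. For the 8 members with both probes detected, all but miR-17-5p, the brighter and the dimmer probe had the same sign in 8 of 8 in each of the 3 comparisons. The median gap between their log2 differences was 0.10 for H+G-Exo over H-Exo, 0.14 for H+G-Exo over N-Exo and 0.08 for H-Exo over N-Exo. The widest gap was that of miR-93-5p in H+G-Exo over H-Exo, at -0.74 by the brighter and -0.40 by the dimmer probe. The probes of a member overlap in sequence and share the RNA, so they are not independent measurements.

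**Figure D4:**
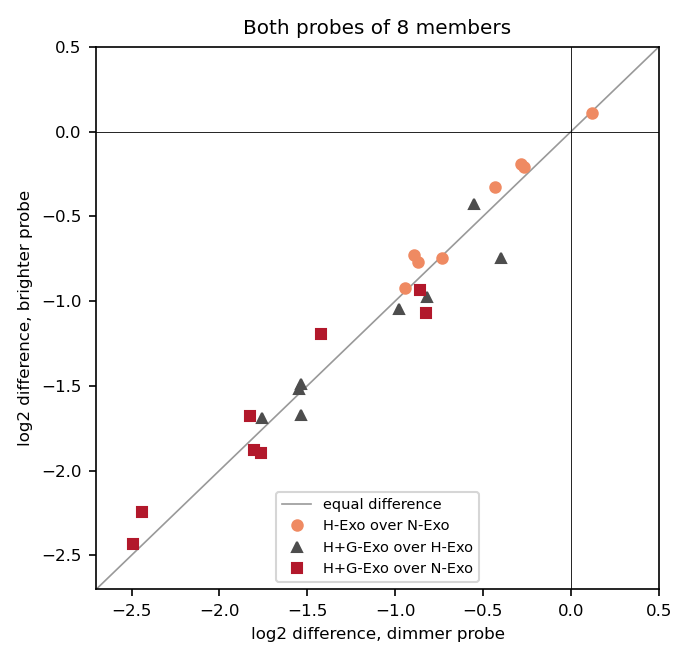
Log2 difference by the dimmer probe (horizontal axis) and by the brighter probe (vertical axis) of the 8 members with both probes detected, with 1 symbol per comparison and a grey line of equality. Points lie within 0.35 of the line, and both probes have the same sign throughout.

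The other arms and nearest relatives of the members were mostly not detected. Of a list of 21, made of the other arms of the 10 members, further miRNAs of the X-linked cluster and miRNAs with the miR-25 seed, 14 stayed below detection on all 3 arrays. miR-20b-5p, an X-linked miRNA with the miR-17 seed, read 0.540 ± 0.0550 in H+G-Exo, 1.48 ± 0.147 in H-Exo and 1.81 ± 0.184 in N-Exo, an order like that of miR-20a-5p. H+G-Exo had 2.74-fold less of it than H-Exo and 3.35-fold less than N-Exo, both past the rule. Without scaling, an alternative chosen for the relatives after seeing the data, these became 1.37-fold and 2.98-fold. How much signal the miR-20b-5p probes may share with miR-20a-5p was not tested.

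Against H-Exo, miR-17-3p fell 2.56-fold in H+G-Exo (1.28-fold lower without scaling, short of the rule). miR-17-3p and miR-20b-5p were the 2 called among 4 relatives measured on both arrays there and among 5 measured in H+G-Exo and N-Exo. In H-Exo against N-Exo 0 of 5 were called. Of all miRNAs 26.1%, 26.5% and 10.7% were lower in these comparisons, and 6.17%, 18.6% and 4.3% were higher. miR-92a-2-5p, the X-linked passenger arm of miR-92a, read 0.141 ± 0.0341 in H+G-Exo, 0.154 ± 0.0473 in H-Exo and 0.106 ± 0.0144 in N-Exo, and miR-18b-3p read 0.0684 ± 0.00771, 0.0870 ± 0.0110 and 0.0770 ± 0.00956 in the same order of groups. Neither passed the rule in any comparison. miR-19a-5p was detected in H-Exo (0.102 ± 0.0105) and N-Exo (0.0663 ± 0.00631) but not in H+G-Exo, which puts it at least 1.56-fold below H-Exo when H-Exo is set against the floor of 0.0653; its N-Exo signal was close to that floor. miR-106a-3p was detected in N-Exo alone, and miR-92b-3p in H+G-Exo and N-Exo at signals under the floor, where values have no order.

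The arrays carried the markers of the labelled cells. Of 7 mesenchymal miRNAs 7 were detected in H+G-Exo, 6 in H-Exo and 7 in N-Exo, with summed scaled signals of 35.3, 92.4 and 223.6. miR-21a-5p alone gave 29.7, 81.0 and 190.4 of these sums, so they mainly describe that miRNA. miR-145a-5p, at 0.0466 in H+G-Exo, lay under the floor of 0.0653. Under the main scaling H-Exo had 6 of 6 markers down relative to N-Exo (median -1.54), where 0 of 9 members fell (median -0.33). H+G-Exo had 4 of 6 markers down relative to H-Exo (median -1.34) and 7 of 7 relative to N-Exo (median -2.68). Among all miRNAs 10.7%, 26.1% and 26.5% were lower in these comparisons. Without scaling, which was tried for the markers after seeing the data, 6 of 6, 0 of 6 and 7 of 7 were 2-fold or more lower in these comparisons. By the call rule without scaling, 7, 0 and 6 of the 9 members fell, beside 23.0%, 1.23% and 23.5% of all miRNAs. The part of the markers in the results on the members was not tested. Both endothelial miRNAs, miR-126a-3p and miR-126a-5p, were undetected on every array, and of 7 blood cell miRNAs 3 were detected in H+G-Exo, 2 in H-Exo and 2 in N-Exo, with summed signals of 0.165, 0.292 and 0.231. The red cell miRNA miR-451a read 0.0480 ± 0.0103 in H+G-Exo, a value under the floor of 0.0653, 0.197 ± 0.0153 in H-Exo and 0.153 ± 0.0138 in N-Exo, while miR-144-3p was not detected. Of the serum and liver miRNAs miR-192-5p was detected in N-Exo alone and miR-122-5p on no array.

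The base composition of the probes also moved with the differences. The GC content of the 9 brighter probes ran from 33.3% for miR-19a-3p, and 40.0% for miR-19b-3p, to 70.6% for miR-92a-3p. Spearman's rho between GC content and log2 difference across the 9 members was 0.28 for H-Exo over N-Exo, 0.74 for H+G-Exo over H-Exo and 0.85 for H+G-Exo over N-Exo, and across all miRNAs measured it was 0.44, 0.42 and 0.50. These are descriptions across miRNAs on the same arrays, and the part of GC content in the results was not tested.

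The miRNAs most like the members were sought among 549 others detected on all 3 arrays, by the distance between centred log2 signals over those 3 arrays. The members' median profile was -0.96 in H+G-Exo, 0.26 in H-Exo and 0.65 in N-Exo around its own mean, and the nearest were miR-344i (distance 0.13), miR-99b-5p (0.14), miR-345-5p (0.15), miR-1949 (0.15) and miR-7063-5p (0.19). miR-99b-5p, for example, read 0.763 in H+G-Exo, 2.04 in H-Exo and 2.51 in N-Exo. The members themselves lay 0.20 to 1.11 from that profile. The search left out the members and the listed relatives; of the 4 relatives detected on all arrays miR-20b-5p lay nearest, at 0.17.

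The authors' deposited value table, read as log2 values, held the same 9 members. In it miR-19a-3p had 5.17 in H+G-Exo, 6.60 in H-Exo and 7.35 in N-Exo, miR-106b-5p had 7.77, 8.52 and 9.31 in the same order, and miR-17-5p 4.90, 4.82 and 5.00. By these values H+G-Exo had 5 members 2-fold or more below N-Exo and 4 members 2-fold or more below H-Exo, beside 22.0% of 726 and 21.5% of 671 miRNAs of that table. The table's columns have medians of -3.30, -3.00 and -3.32 and an equal mean and maximum. Their normalization and centring are not stated, so these values show order and not absolute change.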

How the data were processed

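Per the submitters' processing notes, the software that read the 3 one-colour Cy3 arrays was Agilent Feature Extraction 10.7.1.1. The deposited files hold intensity per spot; the processed intensity has the background subtracted by the software. The deposited value table holds log2 values with no stated normalization. Per the labels' protocols, RNA was extracted with TRIzol; the kits they name are for cDNA and cRNA, so the miRNA labelling step is unclear. The series' design names 3 samples per group; here 1 array per group was analysed.

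Each array had 58594 spots. Control spots (2164) and spots flagged as outliers (1466 in H+G-Exo, 1369 in H-Exo, 1568 in N-Exo) were left out; 0 were saturated. Processed signals were averaged per probe, divided by the 75th percentile of the probes detected on all arrays, raised to a floor of 0.0653 and put on the log2 scale; a miRNA takes its brightest probe. By brightest probe, 653 miRNAs were detected in H+G-Exo, 587 in H-Exo and 666 in N-Exo. The number of arrays limits the precision. With 1 array per group no test was made. The call rule was run on simulated spots with changes larger than 2-fold, spot noise and 1 factor per array. Those spots held no other variation between arrays, so that run cannot show how the calls would hold between replicates. Spike-in levels are medians per probe, then means of log2 over probes. The members and lists were chosen with earlier results of these data known. The named miRNAs are all members, every listed relative detected on at least 1 array, and the 5 most alike miRNAs. Computed with Python 3.11.15 and numpy 2.4.6; normexp background correction used limma 3.58.1 with an offset of 50.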

Additional observations from a re-analysis of the deposited data

How the results depend on the processing

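No paired analysis was possible because each group was 1 array. Of 13 alternatives, 12 gave member values. For H-Exo over N-Exo, the members' median log2 difference of -0.33 became -0.55 (75th percentile, all probes), -0.43 (median of detected probes), -0.45 (quantile), -1.16 (no scaling), -0.91 (labelling spike-ins), -1.17 (hybridization spike-ins) and -0.55 (software total per miRNA). Its count of members called lower, 0, became 1 under the all-probe percentile, the median and the software total, 4 under labelling spike-ins and under a 1.5-fold rule, and 7 without scaling and under hybridization spike-ins. Of all miRNAs 12.1% were lower under the software total and 17.4% under the 1.5-fold rule.

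For H+G-Exo over H-Exo, the median of -1.05 became -0.72 (75th percentile, all probes), -0.64 (median), -0.86 (quantile), -0.053 (no scaling), -0.19 (labelling), -0.21 (hybridization), -0.88 (normexp background), -0.73 (software total) and -0.79 (deposited table). Its count of 5 became 0 without scaling and under either kind of spike-in, where 1.23% to 3.53% of all miRNAs were lower. The 1.5-fold rule called 7, beside 40.9% of all miRNAs. Normexp, the software total and the deposited table called 4, beside 12.3%, 19.7% and 21.5%. For H+G-Exo over N-Exo, the median of -1.68 became -1.57 (75th percentile, all probes), -1.37 (median), -1.40 (quantile), -1.51 (no scaling), -1.40 (labelling), -1.49 (normexp) and -1.27 (deposited table), with 5 to 8 members called lower. The count of 8 came under the 1.5-fold rule, where 33.5% of all miRNAs were lower. No member was called higher in any setting run. The scalings differ by 1 factor per array except quantile; the cause of the other shifts was not tested. Leaving out a replicate was not possible. The 12-base miR-17-5p probe was well above background in N-Exo only, so miR-17-5p rests on 1 probe.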
